A study of Mus musculus with 8 samples.

Results

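The genes described here are the nuclear-encoded subunits of the respiratory chain and of ATP synthase, together with the complex I assembly factors that share their gene names. Members were matched by gene symbol, and 3 muscle-type complex IV isoforms were left out. Of the 19301 genes listed for each library, 96 belong to the set. The set was chosen with earlier results of these data known. Messenger RNA of mouse tendon stem cells was read by RNA-seq in 8 libraries, 4 from cells in HFHG medium and 4 from cells in low glucose medium. The cells were primary cultures from the patellar tendon of C57BL/6J mice, freed with collagenase and grown on plastic, with no sort of the cells described, so they may hold more than one cell type. Low glucose medium held 5.5 mM glucose and the solvent DMSO. HFHG medium (high fat, high glucose) had its glucose raised by 20 mM over that level and held 300 µM palmitic acid, a saturated fatty acid, so both agents changed together. Both cultures lasted 4 days. The libraries of a group are called biological replicates, with no word on whether they came from different mice, and every p-value given here measures the spread between these libraries.

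Complexes I and II pass electrons from NADH and succinate to ubiquinone, complex III passes them on to cytochrome c, and complex IV gives them to oxygen. Complexes I, III and IV pump protons out of the mitochondrial matrix, and ATP synthase makes ATP as protons flow back. Tendon is sparsely supplied with vessels, and several complex IV subunits exist as alternative isoforms whose use differs between tissues or with oxygen supply.

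Expression was deposited as FPKM, the reads of a gene divided by its length and by a read total of the library, so levels can be compared between genes. These totals, as recovered from the FPKM values, were between 34308108 and 37362725 reads. Of each total 99.82% to 99.85% lay on the listed genes, so it may leave out reads that fell on no gene. Reads on the 96 members made up 0.757%, 0.740%, 0.739% and 0.723% of the total in HFHG replicates 1 to 4. The low glucose libraries had 0.771%, 0.756%, 0.775% and 0.820% in the same order. Low glucose replicate 4 stood apart. On the second principal component of all tested genes, which held 4.18% of the variance, it scored 13.8, while the other 7 libraries lay between -7.93 and 2.49. The first component held 81.0% and split the libraries by medium. Because low glucose replicate 4 had the highest share of member reads, the counts of the complexes and lists were also made without it and are given where they differ.

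The respiratory chain genes did not all differ in 1 direction between the media, and within complexes I, III and IV some subunits rose while others fell. Most differences were small, and the largest among the tested members was that of a complex IV isoform, Cox6b2, which rose 3.56-fold. Among the larger falls were those of Ndufs8 of complex I, Uqcrq of complex III and Cox7a2l, counted here with complex IV. Of the 96 members, 94 passed the minimum of 0.5 FPKM in at least 4 libraries and were tested with limma on log2(FPKM + 0.1), with p-values adjusted over all 11710 tested genes. At an adjusted p below 0.05, 13 members were higher in HFHG and 35 were lower, which is 13.8% and 37.2% of those tested. The background was 34.0% of all tested genes higher and 30.8% lower. It differed with level. Of tested genes with a mean of 20 to 200 FPKM, the class of 75 members, 33.2% were higher and 44.2% lower. In either direction 48 members (51.1%) were called, against 64.8% of all tested genes. The median log2 fold change of the members was -0.053 (positive, 0.0062, after rescaling the libraries to the same sum), and that of all tested genes was 0.017. For 91 members the log2 fold change was under 0.5 in size, and 1 member passed 1 in size, a mark that 5.31% of all tested genes reached with an adjusted p below 0.05. Without low glucose replicate 4, 19 members were higher and 35 lower (20.2% and 37.2%, against 33.5% and 30.7% of all tested genes). The median was then -0.041, and the 13 and 35 calls made with 8 libraries were all kept.

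**Figure D1:**
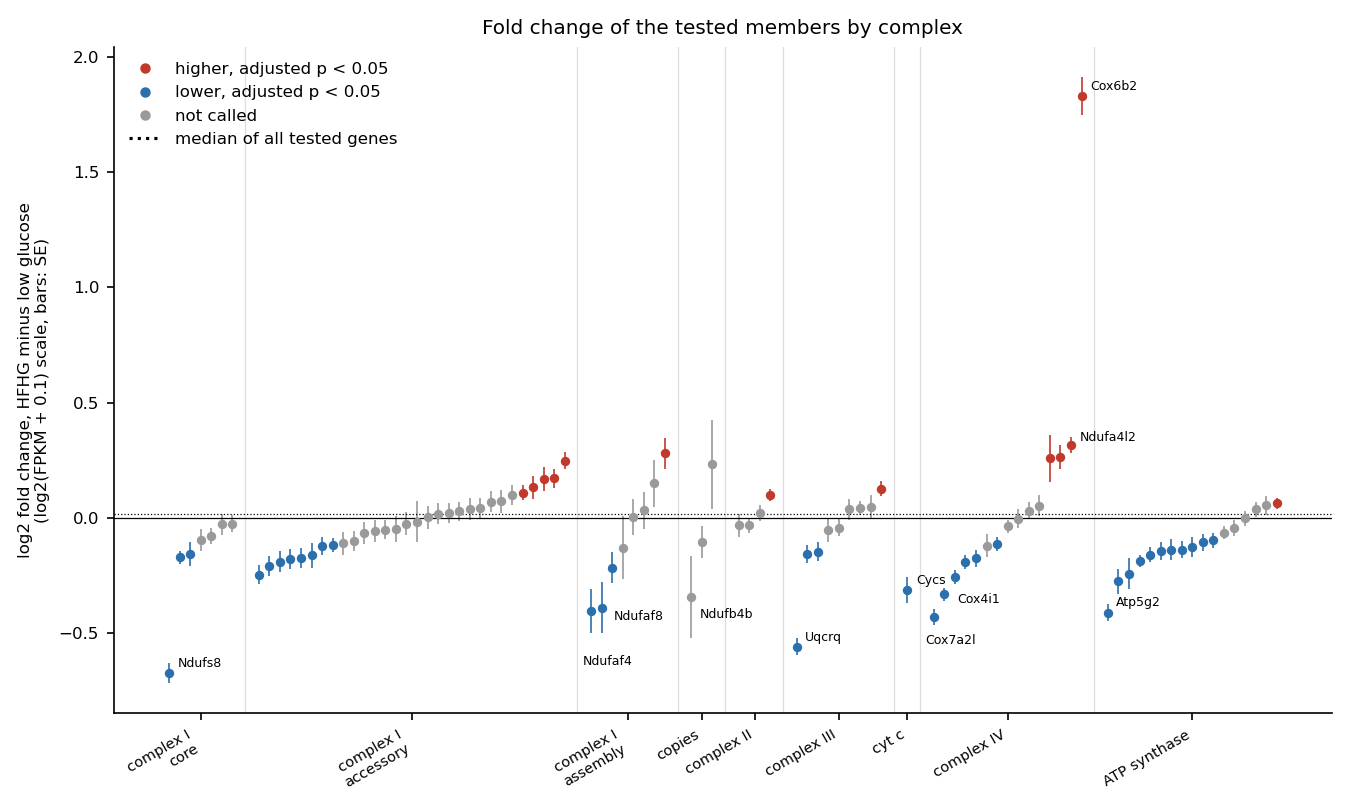
Log2 fold change (HFHG minus low glucose, on the log2(FPKM + 0.1) scale) of the 94 tested members, grouped by complex and ordered by size within each. Points are limma estimates with their SE as bars, colours mark calls at an adjusted p below 0.05, and 72 points lie within 0.2 of 0, with Cox6b2 at 1.83 and Ndufs8 at -0.67 at the ends.

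The split of calls depended on how libraries were scaled. With each library rescaled to the same FPKM sum, 25 members were higher and 24 lower, with median-ratio scaling 8 and 42, and with quantile normalization 21 and 31. These counts are 26.6% and 25.5%, 8.51% and 44.7%, and 22.3% and 33.0% of the 94 tested members. Of all tested genes, 40.0% were higher and 25.6% lower with the same sum. The shares were 30.3% and 34.6% with median-ratio scaling, and 30.8% and 34.4% with quantile normalization. Over all tested genes the share of calls that were higher was 52.5% with the deposited FPKM, 60.9%, 46.7% and 47.3% in the same order. The member median minus the median of all tested genes was -0.070 with the deposited FPKM, -0.069 with the same sum, -0.071 with median-ratio scaling and 0.0060 with quantile normalization. Under all 4 scalings, 8 members were called higher and 22 were called lower, and the same count over all tested genes is not given here. Atp5b and Cox8a were called higher under one scaling and lower under another.

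**Figure D2:**
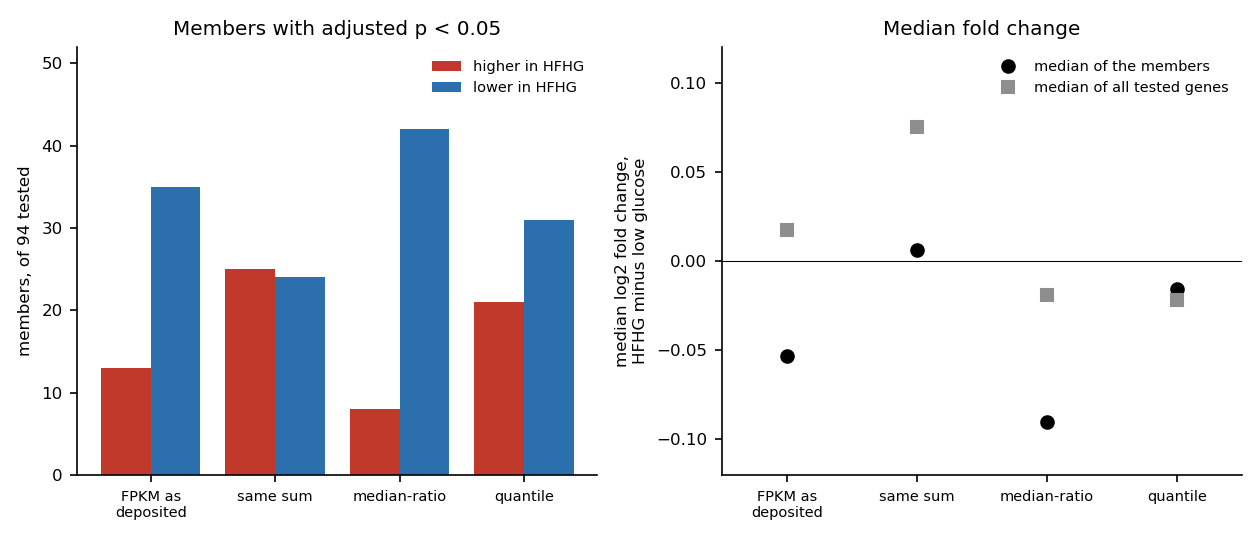
Library scaling and the 94 tested members: the left panel counts members higher or lower in HFHG at a limma adjusted p below 0.05, and the right panel shows the median log2 fold change of the members and of all 11710 tested genes. The counts are 13 higher and 35 lower with the deposited FPKM, 25 and 24 with the same sum, 8 and 42 with median-ratio scaling and 21 and 31 with quantile normalization.

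Summed FPKM, for which no test was run, shows each complex as a whole. The 7 nuclear core subunits of complex I, which hold the electron path, summed to 266, 257, 259 and 255 FPKM in HFHG replicates 1 to 4, against 289, 280, 288 and 302 in low glucose. Every HFHG library lay below every low glucose library, with the HFHG mean at 89.5% of the low glucose mean. For the 17 ATP synthase genes the sums were 2307, 2246, 2216 and 2190 in HFHG, against 2404, 2357, 2438 and 2561 in low glucose. These did not overlap either, and the HFHG mean was 91.8% of the low glucose mean, or 93.3% without low glucose replicate 4. Both HFHG means lay below the low glucose mean under the other scalings, at 93.3%, 87.2% and 91.4% for the complex I core and 95.7%, 89.5% and 97.4% for ATP synthase (same sum, median-ratio and quantile).

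The sums of complexes II, III and IV and of the complex I accessory subunits overlapped between the groups. Complex IV summed to 2467, 2399, 2392 and 2303 FPKM in HFHG and 2415, 2355, 2422 and 2611 in low glucose, where replicate 4 was the highest of the 8 libraries. Its HFHG mean was 97.5% of the low glucose mean with the deposited FPKM and 102% after rescaling to the same sum, so no direction held. Complex II gave 101% (98.3% with median-ratio scaling) and complex III 95.6%. The 96 members together gave 95.3%, 97.2% without low glucose replicate 4 and 101% with quantile normalization.

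**Figure D3:**
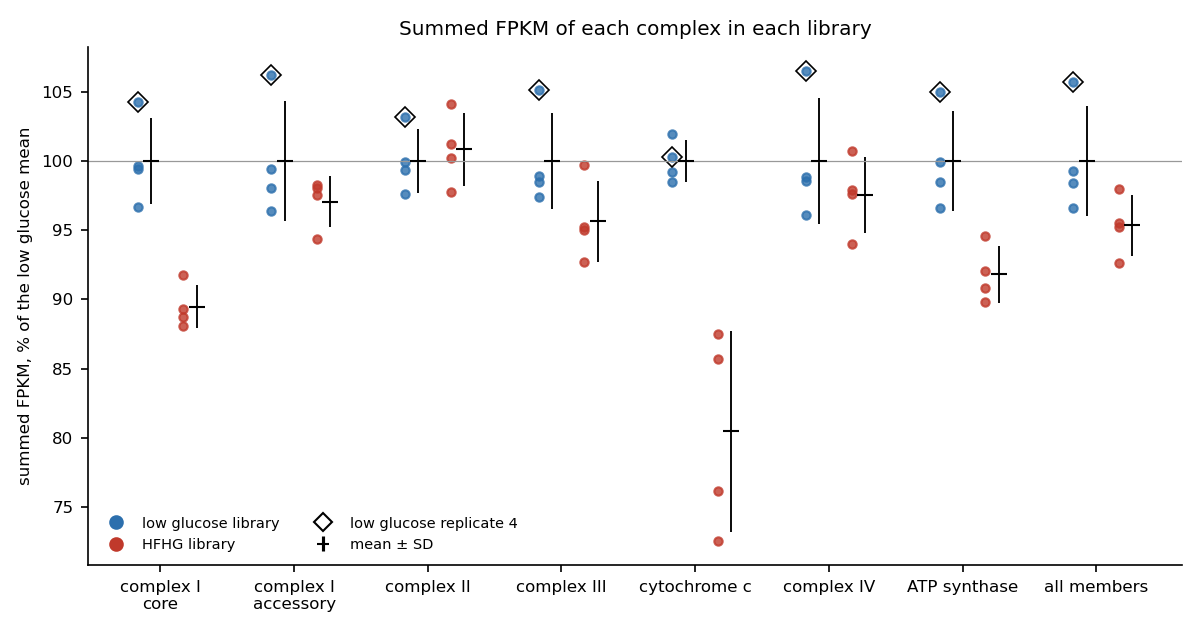
Summed FPKM of each complex in each library, as a percentage of the low glucose mean, with dots for libraries, diamonds for low glucose replicate 4 and bars for the mean ± SD of 4 libraries. With the deposited FPKM the groups do not overlap for the complex I core, cytochrome c and ATP synthase, while the other sums overlap.

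Complex I, which takes electrons from NADH, had 37 subunit genes, all tested. None of the 7 core subunits was higher, against 34.0% of all tested genes, and 3 were lower (42.9%, against 30.8%). Of the 7, 2 were lower with the same sum or quantile normalization and 5 with median-ratio scaling. Their median log2 fold change was -0.097, and -0.068 without low glucose replicate 4, -0.037 with the same sum, -0.13 with median-ratio scaling and -0.039 with quantile normalization. The largest fall among the 94 tested members was that of Ndufs8 (NCBI gene 225887, chr19:3908863-3912774 on the minus strand of GRCm38), a core subunit whose iron-sulfur clusters lie on the way to ubiquinone. Ndufs8 measured 23.1, 24.8, 23.0 and 23.5 FPKM in HFHG replicates 1 to 4, against 39.7, 35.1, 37.3 and 38.8 in the low glucose libraries in the same order. All HFHG libraries lay far below all low glucose libraries. The change was -0.67 on the log2 scale (SE 0.042, 95% interval -0.77 to -0.58, limma adjusted p = 2.1e-08) and was called in all 18 alternatives.

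The 30 accessory subunits, which surround the core, held 5 higher (16.7%, against 34.0% of all tested genes) and 8 lower members (26.7%, against 30.8%), and 17 were not called. The counts were 10 higher and 5 lower with the same sum, 3 and 10 with median-ratio scaling, 6 and 8 with quantile normalization and 8 and 8 without low glucose replicate 4. Their median log2 fold change was -0.021 with the deposited FPKM, and positive after rescaling to the same sum (0.038), with quantile normalization (0.018) and without low glucose replicate 4 (0.0032). Ndufb10, an accessory subunit of the membrane arm, had 82.7, 78.0, 82.2 and 77.0 FPKM in HFHG and 71.6, 64.8, 65.3 and 68.0 in low glucose. All HFHG libraries were above all low glucose libraries (log2 fold change 0.25, SE 0.037, limma adjusted p = 7.1e-05). Ndufs5, another accessory subunit of the membrane arm, rose from 77.4 ± 4.90 to 87.0 ± 2.88 FPKM (mean ± SD, n = 4; log2 fold change 0.17, SE 0.042, limma adjusted p = 0.0030). Against these stood Ndufa2 and Ndufa6, accessory subunits of the matrix arm. Ndufa2 fell from 128 ± 6.10 to 108 ± 5.72 FPKM (log2 fold change -0.25, SE 0.042, limma adjusted p = 2.2e-04), and Ndufa6 from 110 ± 7.47 to 94.7 ± 2.78 FPKM (log2 fold change -0.21, SE 0.042, limma adjusted p = 7.8e-04). Ndufa7, the most abundant complex I subunit, measured 165 ± 6.30 FPKM in HFHG and 179 ± 15.3 in low glucose and was not called (limma adjusted p = 0.069), with low glucose replicate 4 the highest library. With median-ratio scaling (limma adjusted p = 0.026), voom, or without low glucose replicate 1 or 2 it was called lower.

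Assembly factors build complex I without staying in it. Of the 8 Ndufaf genes, 1 was higher (12.5%, against 34.0% of all tested genes) and 3 were lower (37.5%, near 30.8%). Their median log2 fold change was -0.064, and -0.12 without low glucose replicate 4, -0.0076 with the same sum, -0.099 with median-ratio scaling and -0.15 with quantile normalization, and it turned positive (0.0037) with a minimum of 1 FPKM. Ndufaf3 and Ndufaf4 act together on the early ubiquinone-binding module, yet they moved in opposite directions. Ndufaf3 had 12.7, 11.0, 12.1 and 10.6 FPKM in HFHG and 9.20, 9.51, 8.82 and 10.6 in low glucose, with HFHG replicate 4 and low glucose replicate 4 nearly level and the other HFHG libraries above all low glucose libraries (log2 fold change 0.28, SE 0.068, limma adjusted p = 0.0031). Ndufaf4, at 2.21, 3.03, 2.77 and 2.61 FPKM in HFHG and 3.64, 3.87, 3.18 and 3.45 in low glucose, was lower in every HFHG library (log2 fold change -0.41, SE 0.10, limma adjusted p = 0.0026). Ndufaf8, the most abundant of them, fell from 26.9 ± 4.54 to 20.4 ± 2.61 FPKM with a wide spread in low glucose (log2 fold change -0.39, SE 0.11, limma adjusted p = 0.0076), where replicate 4 was the highest library.

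The 4 copies of complex I genes, Ndufab1-ps, Ndufb4b, Ndufb4c and Ndufs6b, match the same symbols. None of the 3 tested was called with the deposited FPKM, against 64.8% of all tested genes. With quantile normalization Ndufab1-ps and Ndufb4b were called lower (limma adjusted p = 0.039 and 0.035), and Ndufb4b also without low glucose replicate 3. The pseudogene Ndufab1-ps measured 4.14 ± 0.129 FPKM in HFHG and 4.47 ± 0.397 in low glucose and was not called (limma adjusted p = 0.20). Another copy, Ndufb4c, lay below the filter with 0.386, 0.00, 0.172 and 0.339 FPKM in HFHG and 0.0601, 0.511, 0.233 and 0.232 in low glucose, from 0 to 9 reads in a library. The groups overlapped (exact two-sided permutation test over 70 arrangements, p = 0.74). Reads of such copies may belong to the parent gene, and the way they were assigned is not given in the sources used here.

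Complex II, which oxidises succinate, had 1 of 4 subunits called, higher. This is 25%, against 64.8% of all tested genes called and 34.0% higher. The number called higher was 2 with the same sum or quantile normalization and 0 with median-ratio scaling. Complex II had a median log2 fold change of -0.0069 (positive at 0.052 with the same sum, 0.042 with quantile normalization and 0.021 without low glucose replicate 4). Sdha, its flavoprotein, measured 66.8, 64.6, 64.3 and 65.3 FPKM in HFHG and 62.6, 60.9, 61.2 and 59.2 in low glucose. The difference was small but without overlap (log2 fold change 0.10, SE 0.027, limma adjusted p = 0.0061), and it missed the threshold with median-ratio scaling (limma adjusted p = 0.056). Sdhc, a membrane anchor and the most abundant subunit, had 91.3 ± 3.39 and 90.1 ± 3.27 FPKM (log2 fold change 0.020, SE 0.034, limma adjusted p = 0.63), a value that turned to -0.017 with median-ratio scaling. It was called higher with the same sum (0.079, limma adjusted p = 0.027) and with quantile normalization (0.089, limma adjusted p = 0.015).

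In complex III, 1 of 9 subunits was higher (11.1%, against 34.0% of all tested genes) and 3 were lower (33.3%, near 30.8%). The 44.4% called compare with 64.8% of all tested genes. The counts were 3 and 3 without low glucose replicate 4, 3 and 2 with the same sum and 2 and 3 with quantile normalization. Complex III had a median log2 fold change of -0.045 (-0.011 without low glucose replicate 4, and positive at 0.015 with the same sum and 0.010 with quantile normalization). The largest difference in the complex was that of Uqcrq (NCBI gene 22272, chr11:53427922-53430831 on the minus strand of GRCm38), a small subunit next to cytochrome b. Uqcrq measured 78.3, 75.5, 73.2 and 70.9 FPKM in HFHG and 109, 105, 109 and 116 in low glucose. The highest HFHG library lay well below the lowest low glucose library (log2 fold change -0.56, SE 0.037, limma adjusted p = 3.5e-08, 95% interval -0.64 to -0.48). In the same complex Uqcrh, the hinge protein next to cytochrome c1, rose. It had 194, 183, 185 and 178 FPKM in HFHG and 165, 170, 179 and 166 in low glucose, with HFHG replicate 4 just under low glucose replicate 3 (log2 fold change 0.13, SE 0.032, limma adjusted p = 0.0042). Uqcr11, another small subunit, fell from 107 ± 7.46 to 96.0 ± 0.324 FPKM (log2 fold change -0.16, SE 0.040, limma adjusted p = 0.0042).

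Cycs encodes the somatic cytochrome c, the mobile carrier between complexes III and IV, which also acts in apoptosis when released. It had 14.7, 12.8, 12.2 and 14.4 FPKM in HFHG and 17.1, 16.7, 16.6 and 16.9 in low glucose. The low glucose libraries were tight and all above the HFHG libraries, among which replicates 2 and 3 were lowest (log2 fold change -0.32, SE 0.057, limma adjusted p = 3.3e-04). The level of Cycs was low beside its partners, with Uqcrh at 185 ± 6.60 and Cox4i1 at 311 ± 5.39 FPKM in HFHG.

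Complex IV, cytochrome c oxidase, came next in the chain. Of its 16 genes 15 were tested, 4 were higher and 6 lower (5 and 6 without low glucose replicate 4, 6 and 5 with the same sum, 3 and 8 with median-ratio scaling, 7 and 6 with quantile normalization), and the log2 fold changes ran from -0.43 to 1.83, with a median of -0.036 (-0.0087 without low glucose replicate 4, and positive at 0.023 with the same sum and 0.11 with quantile normalization). The 66.7% called lay near the 64.8% of all tested genes, with 26.7% higher against 34.0% and 40% lower against 30.8%. Cox6b2 (NCBI gene 333182, chr7:4751792-4753094 on the minus strand of GRCm38) is an isoform of the subunit VIb that is best known from testis. It measured 18.5, 18.7, 19.2 and 18.1 FPKM in HFHG and 4.57, 6.27, 4.70 and 5.24 in low glucose. No library came near the other group, and the log2 fold change was 1.83 (SE 0.081, 95% interval 1.65 to 2.01, limma adjusted p = 8.9e-10), or 3.56-fold. The common isoform Cox6b1 had 269 ± 14.0 FPKM in HFHG and 269 ± 14.5 in low glucose (log2 fold change -0.0050, SE 0.042, limma adjusted p = 0.92), with a sign that turned positive after rescaling to the same sum (0.054), with quantile normalization (0.19, called at a limma adjusted p of 2.9e-04) and without low glucose replicate 4 (0.030). As a share of both isoforms, which rescaling a library by a factor does not change, Cox6b2 made up 6.02, 6.74, 6.66 and 6.52% in HFHG, against 1.70, 2.40, 1.72 and 1.78% in low glucose. Cox6b1 was the more abundant isoform in every library.

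Subunit IV also exists as a pair of isoforms. Cox4i1, the common isoform and the most abundant complex IV gene, had 314, 316, 308 and 304 FPKM in HFHG and 384, 379, 390 and 413 in low glucose. All HFHG libraries were lower (log2 fold change -0.33, SE 0.028, limma adjusted p = 3.8e-07). Cox4i2, an isoform known from lung and for its response to oxygen, had 6.96, 6.65, 6.08 and 5.16 FPKM in HFHG and 4.37, 5.30, 5.08 and 5.95 in low glucose. These values overlapped, and the call (log2 fold change 0.26, SE 0.10, limma adjusted p = 0.043) was lost with median-ratio scaling, quantile normalization, the replicate block, no filter, voom, and without any one of HFHG replicates 1 to 3 or low glucose replicates 1 to 3. The share of Cox4i2 in the pair was 2.17, 2.06, 1.93 and 1.67% in HFHG, against 1.13, 1.38, 1.29 and 1.42% in low glucose, without overlap.

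Ndufa4l2, a relative of the complex IV subunit Ndufa4 that is known as a target of HIF-1, was abundant. It had 224, 227, 224 and 225 FPKM in HFHG and 181, 173, 175 and 195 in low glucose. The HFHG libraries were nearly equal and all higher, and low glucose replicate 4 came closest (log2 fold change 0.31, SE 0.034, limma adjusted p = 3.7e-06). Ndufa4 itself had 117 ± 5.41 FPKM in HFHG and 114 ± 4.16 in low glucose and was not called (log2 fold change 0.031, limma adjusted p = 0.47), with -0.0062 under median-ratio scaling. It was called higher with the same sum (0.090, limma adjusted p = 0.023) and with quantile normalization (0.11, limma adjusted p = 0.0080). Ndufa4l2 made up 65.1, 67.4, 64.7 and 66.1% of the pair in HFHG, against 61.0, 61.3, 60.6 and 62.2% in low glucose, so it was the larger of the 2 in all libraries.

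Among the other complex IV genes, Cox6a1, the isoform of subunit VIa found in most tissues, rose. It measured 336, 337, 323 and 294 FPKM in HFHG and 265, 251, 265 and 296 in low glucose, where replicate 4 passed HFHG replicate 4 (log2 fold change 0.26, SE 0.051, limma adjusted p = 6.2e-04). Cox7a2l, a relative of Cox7a2, fell to 102, 101, 102 and 95.4 FPKM in HFHG from 135, 127, 137 and 140 in low glucose. The groups did not overlap (log2 fold change -0.43, SE 0.034, limma adjusted p = 2.1e-07). Cox7a2, the related subunit of complex IV itself, fell from 107 ± 3.92 to 93.8 ± 1.91 FPKM (log2 fold change -0.19, SE 0.030, limma adjusted p = 1.0e-04). Cox7b, a small subunit needed for assembly, fell from 90.1 ± 0.358 to 75.5 ± 3.22 FPKM (log2 fold change -0.26, SE 0.030, limma adjusted p = 9.6e-06). Cox8a, the common isoform of the smallest subunit, had 322 ± 4.27 and 330 ± 13.5 FPKM, a log2 fold change of -0.036 (limma adjusted p = 0.27) that read 0.023 after rescaling to the same sum and 0.22 with quantile normalization. Cox7b2, a relative of Cox7b, had 1 read in low glucose replicate 1 and 0 in the other 7 libraries. At 0 reads as many as 3 could have been expected, or 0.148 to 0.156 FPKM in those libraries, for counting error only.

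**Figure D4:**
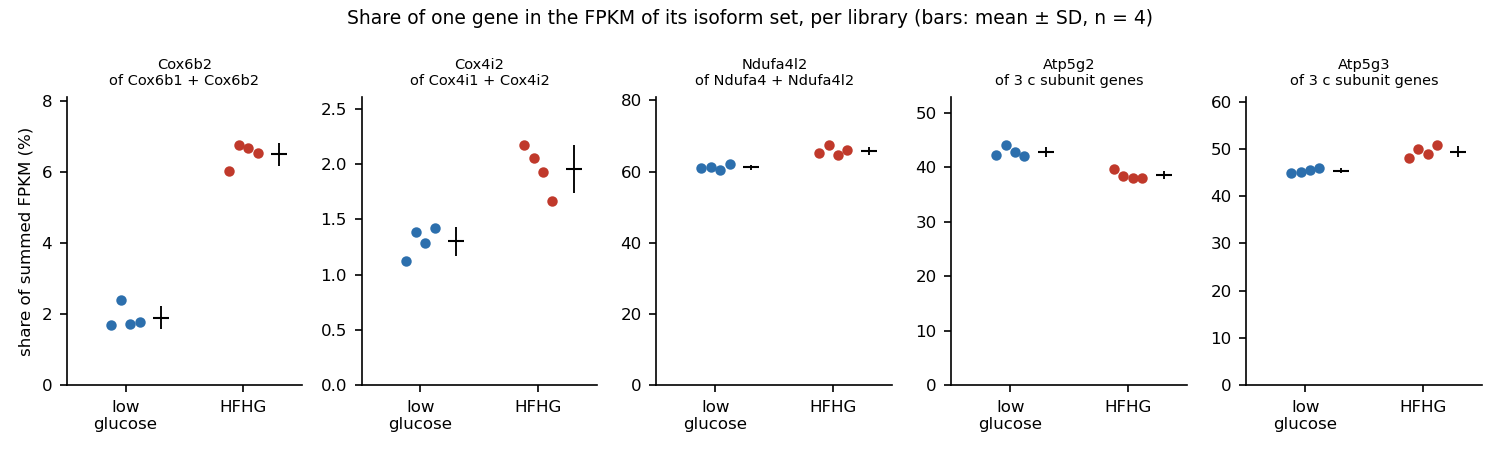
Share of one gene in the summed FPKM of its isoform set, per library in percent, with dots for libraries and bars for the mean ± SD of 4 libraries. Cox6b2, Cox4i2, Ndufa4l2 and Atp5g3 have a larger share in HFHG and Atp5g2 a smaller one, without overlap of the groups, and the shares do not change when a library is rescaled by a factor.

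ATP synthase had 1 gene higher and 11 lower of 17, against 3 higher and 7 lower after rescaling to the same sum, 0 and 12 with median-ratio scaling, 3 and 6 with quantile normalization and 0 and 11 with the replicate block. The 70.6% called lay near the 64.8% of all tested genes, with 5.88% higher against 34.0% and 64.7% lower against 30.8%. Its median log2 fold change was -0.13, and -0.079 without low glucose replicate 4, -0.068 with the same sum, -0.16 with median-ratio scaling and -0.066 with quantile normalization. The catalytic subunit Atp5b was the most abundant member of all at a mean of 401 FPKM. It had 378, 377, 381 and 363 FPKM in HFHG and 428, 417, 420 and 443 in low glucose. All HFHG libraries were lower (log2 fold change -0.19, SE 0.025, limma adjusted p = 2.5e-05), and quantile normalization turned the difference to 0.064 (limma adjusted p = 0.0092). Its partner in the catalytic head, Atp5a1, had 191 ± 1.60 FPKM in HFHG and 183 ± 4.24 in low glucose (log2 fold change 0.062, SE 0.023, limma adjusted p = 0.031), a call lost with median-ratio scaling, the replicate block, and without any one of HFHG replicates 1, 3 and 4 or low glucose replicates 1 to 3. Atp5e, the small epsilon subunit of the stalk, fell from 181 ± 11.5 to 149 ± 10.9 FPKM (log2 fold change -0.28, SE 0.053, limma adjusted p = 5.1e-04).

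Atp5g1, Atp5g2 and Atp5g3 encode the same mature c subunit, which forms the rotating ring in the membrane, and all were lower. Atp5g2 (NCBI gene 67942, chr15:102662864-102672352 on the minus strand of GRCm38) had 122, 114, 113 and 110 FPKM in HFHG and 148, 150, 151 and 162 in low glucose. All HFHG libraries lay below all low glucose libraries (log2 fold change -0.41, SE 0.035, limma adjusted p = 4.6e-07). Atp5g3, the most abundant of the set, had 147, 148, 145 and 147 FPKM in HFHG and 158, 153, 160 and 177 in low glucose (log2 fold change -0.14, SE 0.038, limma adjusted p = 0.0064). Atp5g1 fell from 42.0 ± 3.84 to 35.4 ± 2.67 FPKM with overlapping libraries (log2 fold change -0.24, SE 0.066, limma adjusted p = 0.0059). The share of Atp5g2 in the summed FPKM of the genes was 39.8, 38.5, 38.1 and 38.0% in HFHG, against 42.4, 44.1, 42.9 and 42.1% in low glucose, without overlap, while the share of Atp5g3 was larger in HFHG and that of Atp5g1 overlapped.

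**Figure D5:**
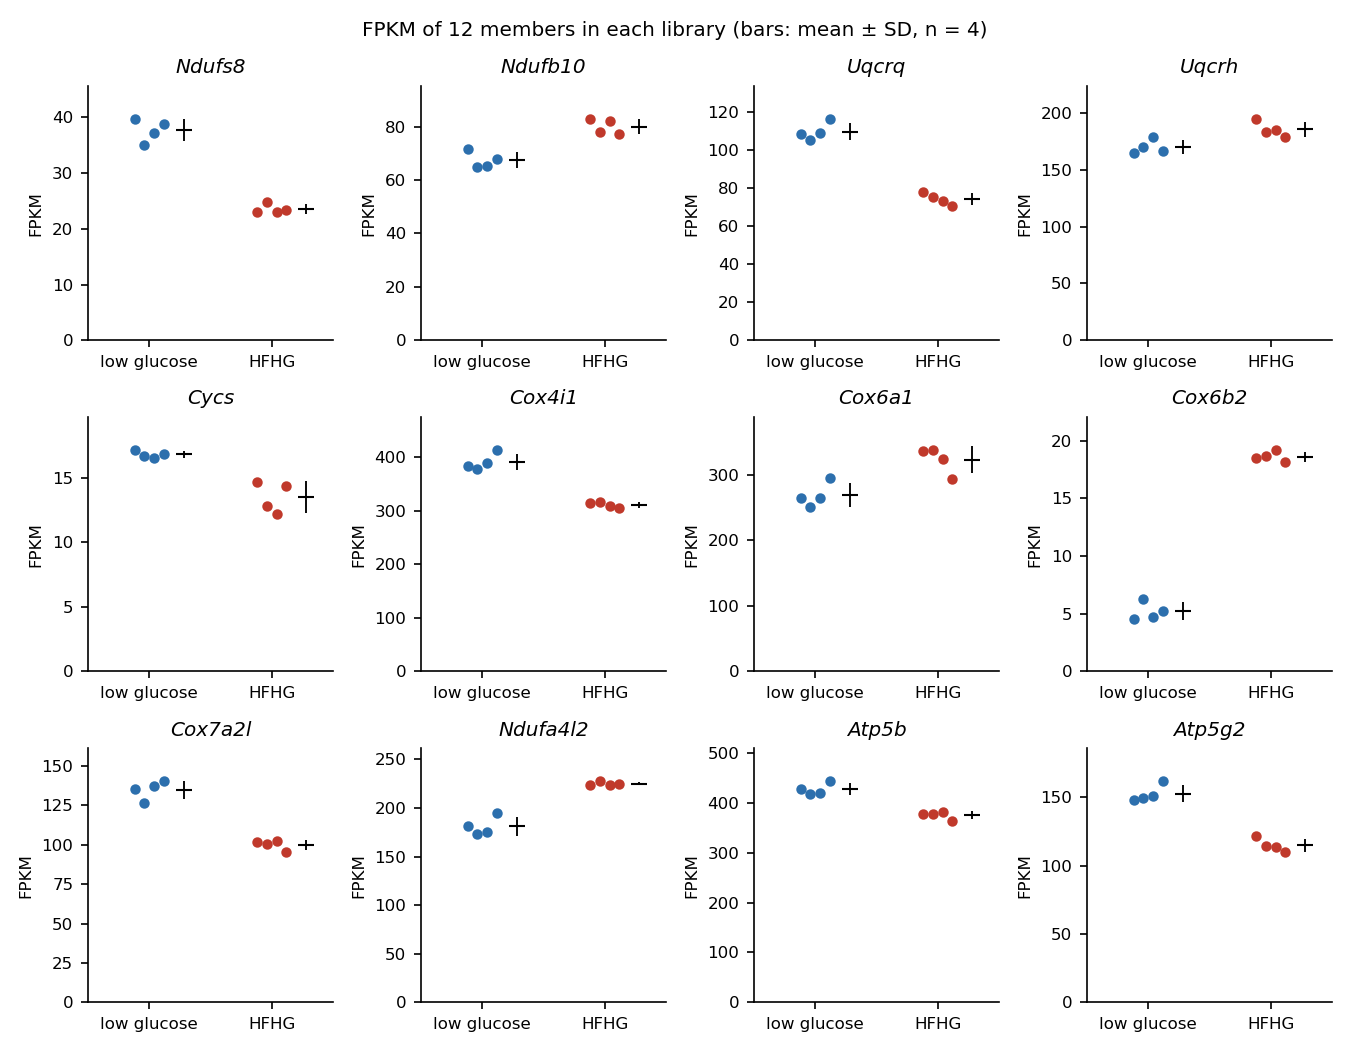
FPKM of 12 members in each library, with axes from 0, dots for libraries and bars for the mean ± SD of 4 libraries. With the deposited FPKM, Ndufs8, Uqcrq, Cycs, Cox4i1, Cox7a2l, Atp5b (reversed with quantile normalization) and Atp5g2 are lower in every HFHG library and Ndufb10, Cox6b2 and Ndufa4l2 higher, while Uqcrh and Cox6a1 overlap.

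Exons of several named members overlap genes on the opposite strand in GENCODE M21, among them Cox4i1 with Emc8, Ndufa4l2 with Shmt2 and Ndufaf3 with Impdh2. The libraries were made with a stranded kit, and whether the counting used strand is not given in the sources used here, so part of their reads may belong to the partner.

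Promoters are shown because nuclear respiratory genes share binding letters for a few transcription factors. RefSeq windows of 300 bases (250 before to 50 after the start, GRCm38.p6) were at hand for 77 of the 96 members and 27025 genes in all. The NRF1 letters GCGCANGCG, on either strand, occurred in 29.9% of the members and 7.03% of all genes. The ETS letters CCGGAAG were in 24.7% and 9.93%, the YY1 letters AAGATGGC in 14.3% and 3.19%, the ERR letters TCAAGGTCA in 2.60% and 0.466%, and the E-box CACGTG in 7.79% and 8.09%, each searched on both strands. None of these letter strings contains another. A match is a description, not a site or a cause. By call, NRF1 letters were in 4 of 10 members that were higher, 10 of 29 that were lower and 9 of 37 that were not called. By role, they were in 7 of 15 ATP synthase genes, 1 of 12 complex IV genes, 2 of 5 complex III genes and 2 of 3 complex II genes. For complex I they were in 0 of 5 core, 8 of 28 accessory and 2 of 7 assembly factor genes and 0 of 1 copies. Cycs also had them. Shown to let the isoform pair and members that moved in opposite directions be read side by side are the 250 bases before the RefSeq start of the isoform pair Cox6b1 (chr7:30626115-30626364) and Cox6b2 (chr7:4753095-4753344), of Cox6a1 (chr5:115348959-115349208), which rose, and of Cycs (chr6:50566570-50566819) and Atp5g2 (chr15:102671048-102671297), which fell, all on the minus strand and read 5′ to 3′, with NRF1 and ETS letters in capitals.
Cox6b1: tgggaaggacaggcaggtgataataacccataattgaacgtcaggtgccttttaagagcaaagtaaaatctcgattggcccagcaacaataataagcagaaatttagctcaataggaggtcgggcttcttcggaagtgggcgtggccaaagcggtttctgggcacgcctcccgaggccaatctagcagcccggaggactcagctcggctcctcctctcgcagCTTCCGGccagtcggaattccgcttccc
Cox6b2: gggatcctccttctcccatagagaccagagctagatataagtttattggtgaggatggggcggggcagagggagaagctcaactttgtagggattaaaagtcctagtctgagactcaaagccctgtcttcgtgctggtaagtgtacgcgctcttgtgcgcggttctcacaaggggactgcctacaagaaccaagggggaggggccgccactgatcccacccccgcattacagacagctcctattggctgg
Cox6a1: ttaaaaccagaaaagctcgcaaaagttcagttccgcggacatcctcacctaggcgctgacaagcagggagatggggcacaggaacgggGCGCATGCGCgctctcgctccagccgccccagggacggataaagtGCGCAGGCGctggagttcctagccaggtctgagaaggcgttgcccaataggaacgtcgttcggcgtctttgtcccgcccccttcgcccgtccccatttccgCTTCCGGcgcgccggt
Cycs: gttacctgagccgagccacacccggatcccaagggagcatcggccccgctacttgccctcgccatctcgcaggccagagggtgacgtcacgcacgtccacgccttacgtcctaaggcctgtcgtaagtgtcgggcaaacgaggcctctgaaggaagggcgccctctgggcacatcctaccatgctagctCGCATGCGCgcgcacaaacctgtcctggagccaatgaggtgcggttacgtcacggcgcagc
Atp5g2: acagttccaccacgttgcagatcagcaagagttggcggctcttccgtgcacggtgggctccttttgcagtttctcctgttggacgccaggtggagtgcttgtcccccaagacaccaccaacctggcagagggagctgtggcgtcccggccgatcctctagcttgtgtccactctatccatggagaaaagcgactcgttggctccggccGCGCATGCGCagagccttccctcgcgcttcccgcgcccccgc
Cox6b2 held none of these letters in its window, while Cox6b1 had ETS letters 28 bases before the start. Cox6a1 had NRF1 letters at 162 and 117 and ETS letters at 16 bases before the start, Cycs had NRF1 letters at 61 and Atp5g2 at 42 bases, and the runs at 162 in Cox6a1 and 42 in Atp5g2 match on both strands, shifted by 1 base. The starts are those of RefSeq, which for Cox6b1, Cox6a1 and Atp5g2 lie inside the span GENCODE gives for the gene. NRF1 letters stood before a gene that rose and before genes that fell.

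The factors that read these letters were also measured. Nrf1 had 1.16 ± 0.0767 FPKM in HFHG and 1.25 ± 0.110 in low glucose and was not called (limma adjusted p = 0.41). Gabpa, the ETS factor of respiratory genes, fell from 15.0 ± 0.951 to 13.0 ± 0.741 FPKM (log2 fold change -0.20, SE 0.054, limma adjusted p = 0.0053). Yy1, which binds the YY1 letters, fell from 20.9 ± 0.691 to 18.3 ± 0.340 FPKM (log2 fold change -0.19, SE 0.036, limma adjusted p = 4.4e-04). Esrra, the nuclear receptor that binds the ERR letters, rose. It measured 27.0, 25.5, 23.6 and 24.4 FPKM in HFHG and 16.8, 16.7, 15.9 and 16.8 in low glucose, without overlap (log2 fold change 0.60, SE 0.044, limma adjusted p = 1.0e-07). The coactivators Ppargc1a and Ppargc1b lay below the filter, at 0.0385 ± 0.0116 FPKM in HFHG against 0.0255 ± 0.0160 in low glucose for Ppargc1a and 0.0616 ± 0.0249 against 0.0569 ± 0.0178 for Ppargc1b (exact two-sided permutation p = 0.26 and 0.77). Myc, which can drive mitochondrial genes in growing cells, had 10.9, 9.01, 9.11 and 10.6 FPKM in HFHG and 21.5, 19.7, 19.4 and 20.8 in low glucose (log2 fold change -1.04, SE 0.065, limma adjusted p = 2.2e-08). Over the whole list of 20 nuclear regulators 15 were tested, 5 were higher (33.3%, against 34.0% of all tested genes) and 7 lower (46.7%, against 30.8%), with a median log2 fold change of -0.16. The counts were 4 and 7 without low glucose replicate 4, 3 and 8 with median-ratio scaling and 4 and 8 with quantile normalization. Epas1, the HIF-2 alpha gene, rose from 2.81 ± 0.115 to 5.38 ± 0.297 FPKM (log2 fold change 0.91, SE 0.063, limma adjusted p = 6.2e-08). Hif1a, the HIF-1 alpha gene and far more abundant, fell, with 205, 203, 209 and 210 FPKM in HFHG, against 246, 259, 256 and 237 in low glucose, without overlap (log2 fold change -0.27, SE 0.029, limma adjusted p = 3.8e-06). Sirt1, a deacetylase, fell from a mean of 3.49 to 2.42 FPKM (log2 fold change -0.52, SE 0.095, limma adjusted p = 3.8e-04).

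Further genes around the respiratory chain were counted from lists. The 13 subunits encoded in mitochondrial DNA were not analysed here. Of the 15 listed genes for replication and transcription of that DNA, 14 were tested, 3 were higher and 5 lower (5 and 5 with the same sum, 2 and 5 with median-ratio scaling or quantile normalization). The 57.1% called compare with 64.8% of all tested genes, and the list had a median log2 fold change of -0.051 (positive at 0.0075 with the same sum). Lrpprc, which stabilises mitochondrial mRNA, had 8.80, 8.74, 8.60 and 9.07 FPKM in HFHG and 15.0, 16.4, 15.3 and 14.8 in low glucose (log2 fold change -0.80, SE 0.044, limma adjusted p = 6.6e-09). Slirp, its binding partner, fell from 78.5 ± 4.40 to 60.1 ± 1.62 FPKM (log2 fold change -0.38, SE 0.039, limma adjusted p = 2.3e-06). Tfam, which packages mitochondrial DNA, fell from 7.53 ± 0.340 to 6.18 ± 0.394 FPKM (log2 fold change -0.28, SE 0.058, limma adjusted p = 9.0e-04). In the other direction Tfb2m, a transcription factor of mitochondria, rose from 3.20 ± 0.413 to 5.42 ± 0.199 FPKM (log2 fold change 0.75, SE 0.084, limma adjusted p = 5.7e-06), and Polg2, the accessory subunit of the DNA polymerase, had 1.93 ± 0.139 and 1.57 ± 0.297 FPKM (log2 fold change 0.30, SE 0.12, limma adjusted p = 0.042), a call lost in 11 of 18 alternatives, among them median-ratio scaling, quantile normalization and the replicate block.

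Electron entry beside complexes I and II had all 6 tested genes called, 4 higher and 2 lower, with a median log2 fold change of 0.32, where 64.8% of all tested genes were called. Prodh, the proline dehydrogenase, lay below the filter, at 0.176 ± 0.0901 FPKM in HFHG against 0.583 ± 0.138 in low glucose, without overlap (exact two-sided permutation p = 0.029, the smallest it can give). Etfa and Etfdh pass electrons from fatty acid oxidation to ubiquinone. Etfa rose from 7.39, 7.47, 6.78 and 7.75 FPKM in low glucose to 11.1, 10.9, 11.2 and 11.2 in HFHG (log2 fold change 0.59, SE 0.049, limma adjusted p = 3.1e-07). Etfdh rose from 15.9 ± 1.34 to 23.8 ± 0.847 FPKM (log2 fold change 0.58, SE 0.056, limma adjusted p = 1.4e-06). Dhodh, which feeds electrons from pyrimidine synthesis, fell from 4.54 ± 0.371 to 3.13 ± 0.270 FPKM (log2 fold change -0.52, SE 0.080, limma adjusted p = 9.0e-05), and Gpd2, the mitochondrial glycerol phosphate dehydrogenase, from 7.57 ± 0.228 to 5.91 ± 0.206 (log2 fold change -0.35, SE 0.049, limma adjusted p = 3.9e-05).

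The carriers and channels that serve ATP synthase were called in 8 of 8 tested genes, 3 higher and 5 lower, against 64.8% of all tested genes called, with a median log2 fold change of -0.26. Ucp2, a member of the uncoupling protein family, showed the largest rise of this list. It had 50.5, 49.3, 50.8 and 52.2 FPKM in HFHG and 16.2, 17.1, 14.8 and 19.3 in low glucose, 3.01-fold (log2 fold change 1.59, SE 0.063, limma adjusted p = 2.7e-10). Atpif1, the inhibitor of ATP synthase, rose from 30.1 ± 1.82 to 37.2 ± 0.514 FPKM (log2 fold change 0.31, SE 0.041, limma adjusted p = 2.6e-05). Slc25a5, an ADP/ATP carrier, fell from 127 ± 5.81 to 87.0 ± 2.20 FPKM (log2 fold change -0.55, SE 0.034, limma adjusted p = 1.8e-08), and Slc25a3, the phosphate carrier, from 273 ± 7.38 to 199 ± 1.52 FPKM (log2 fold change -0.46, SE 0.024, limma adjusted p = 3.2e-09). These 4 genes had the same calls under all 4 scalings. Slc25a4, another ADP/ATP carrier, was called higher at 260 ± 3.27 against 247 ± 7.12 FPKM (log2 fold change 0.072, SE 0.024, limma adjusted p = 0.020), and lost the call with median-ratio scaling, the replicate block and without HFHG replicate 1 or low glucose replicate 1 or 2.

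Assembly factors of complexes II to V held 11 higher and 9 lower of 33 tested (14 and 8 with the same sum), or 33.3% and 27.3%, near the 34.0% and 30.8% of all tested genes, and had a median log2 fold change of -0.013 (positive at 0.046 with the same sum). Cox19, a copper-handling factor of complex IV, rose from 22.3 ± 1.78 to 33.1 ± 1.84 FPKM (log2 fold change 0.57, SE 0.055, limma adjusted p = 1.6e-06), and Cox18, which inserts a core subunit, from 13.8 ± 0.965 to 19.7 ± 1.90 FPKM (log2 fold change 0.51, SE 0.068, limma adjusted p = 2.8e-05). Higd1a, a hypoxia-induced protein that binds complex IV, fell from 109 ± 2.29 to 76.8 ± 2.24 FPKM (log2 fold change -0.51, SE 0.028, limma adjusted p = 6.9e-09). Coa7 was lower too, at 1.05 ± 0.155 against 1.87 ± 0.160 FPKM (log2 fold change -0.79, SE 0.11, limma adjusted p = 5.9e-05). Of 10 further complex I assembly factors 2 were higher (20%, against 34.0% of all tested genes) and 1 was lower (10%, against 30.8%). The counts were 3 and 1 with the same sum, 2 and 2 with median-ratio scaling and 2 and 3 with quantile normalization. This list had a median of 0.022 (negative with median-ratio scaling, -0.015, and quantile normalization, -0.032). Foxred1 rose from 4.88 ± 0.302 to 6.65 ± 0.281 FPKM (log2 fold change 0.44, SE 0.059, limma adjusted p = 3.0e-05), Tmem126b from 11.9 ± 0.432 to 15.3 ± 0.320 (log2 fold change 0.36, SE 0.040, limma adjusted p = 4.6e-06), and Aifm1 fell from 16.2 ± 0.902 to 12.2 ± 1.05 (log2 fold change -0.41, SE 0.061, limma adjusted p = 8.2e-05).

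Coenzyme Q synthesis, which makes the ubiquinone that complexes I to III share, held 5 higher and 3 lower of 12 tested genes (3 and 2 without low glucose replicate 4, 5 and 2 with the same sum, 3 and 4 with median-ratio scaling, 2 and 4 with quantile normalization). The 66.7% called lay near the 64.8% of all tested genes. The median log2 fold change was -0.0041 (positive at 0.055 with the same sum, 0.014 with quantile normalization and 0.011 without low glucose replicate 4). Coq8a, an atypical kinase of the pathway, rose from 0.409, 0.574, 0.328 and 0.339 FPKM in low glucose to 1.23, 1.23, 1.14 and 1.31 in HFHG (log2 fold change 1.39, SE 0.15, limma adjusted p = 4.3e-06). It reached 0.5 FPKM in 1 low glucose library, so it passed the filter through the HFHG libraries, where it is high. Coq4 fell from 2.17 ± 0.141 to 1.46 ± 0.222 FPKM (log2 fold change -0.55, SE 0.11, limma adjusted p = 8.4e-04). Coq3, at 5.19 ± 0.549 against 4.41 ± 0.219 FPKM (log2 fold change 0.23, SE 0.075, limma adjusted p = 0.019), lost its call with quantile normalization and without HFHG replicate 4, and Coq7, at 7.44 ± 1.39 against 9.01 ± 0.589 (log2 fold change -0.29, SE 0.10, limma adjusted p = 0.029), lost it in 8 of 18 alternatives, among them rescaling to the same sum and leaving out low glucose replicate 4.

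Markers of cell types were read in the same libraries. In bulk RNA, fewer cells of a type and less RNA per cell cannot be told apart. All 9 tendon markers were tested, 7 higher and 1 (Mkx) lower, where 34.0% of all tested genes were higher and 30.8% lower. The FPKM of the tendon markers summed to 2503, 2527, 2481 and 2533 in HFHG, against 1623, 1635, 1615 and 1599 in low glucose. Col1a1 had 529 FPKM in HFHG against 206 in low glucose. Dcn was the most abundant at a mean of 607 FPKM and was not called (limma adjusted p = 0.77), except with quantile normalization, where it was higher. The tendon factors Scx and Tnmd were low, with Scx at 2.27 FPKM in HFHG against 1.45 in low glucose and Tnmd at 1.10 against 0.614. Scx overlapped, with 1.53 in HFHG replicate 3 and 1.76 in low glucose replicate 3. By qPCR the study reported decreased Scx and Tnmd in HFHG medium. Macrophage markers were present as well and none was at 0. Beside the same shares of all tested genes, 1 of the 7 macrophage markers was higher and 5 were lower. Their sum was 1785, 1762, 1751 and 1735 FPKM in HFHG, against 1886, 1903, 1918 and 1970 in low glucose, mostly from Lyz2 at a mean of 1701. The HFHG mean of this sum was 91.6% of the low glucose mean and 89.3% to 98.8% under the other scalings. Ptprc, the pan-leukocyte marker, had 1.98 FPKM in HFHG and 2.26 in low glucose and was not called (limma adjusted p = 0.089), but was called lower with median-ratio scaling (limma adjusted p = 0.044), quantile normalization (0.0085) and without low glucose replicate 4. The call of Csf1r, lower, was lost in 7 alternatives, among them the same sum, and that of Lyz2, lower, was lost and its sign turned (0.0062) with quantile normalization. C1qa fell from 36.6 to 18.6 (log2 fold change -0.97, SE 0.048, limma adjusted p = 2.6e-09). The part of tendon, macrophage and other cell markers in the member values was not tested.

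Markers of other cell types were low, and their calls stand beside 34.0% of all tested genes higher and 30.8% lower. Endothelial markers summed to 1.33, 1.32, 1.28 and 1.22 FPKM in HFHG, against 1.14, 0.955, 0.996 and 1.14 in low glucose, with 1 of 5 tested and higher (Tek, the most abundant at a mean of 0.674 FPKM), a call lost with quantile normalization, and none at 0 in a library. The means of Cdh5 (0.0873 against 0.154 FPKM) and Kdr, both below the filter, were lower in HFHG. Skeletal muscle markers summed to 3.61, 4.07, 2.02 and 1.23 in HFHG, against 5.59, 6.08, 6.51 and 5.68 in low glucose, with 2 of 9 tested and lower, Acta1 and Mb. Mb reached 0.5 FPKM in all 4 low glucose and 2 HFHG libraries, and its call was lost in 7 alternatives, low glucose replicate 4 left out among them. Tnnt3, below the filter, had the opposite order, with 0.571 FPKM in HFHG against 0.116 in low glucose and no overlap, and the means of Myh7 and Pax7 were also higher in HFHG. Acta1 was the most abundant of them at a mean of 2.14 FPKM, and Myh1, Myh4, Myh7, Ckm, Myod1 and Pax7 were each at 0 in at least 1 library. Adipocyte markers summed to 0.296, 0.410, 0.487 and 0.452 in HFHG, against 0.375, 0.566, 0.340 and 0.586 in low glucose, none of 5 reached the filter, Pparg was the most abundant at 0.312 FPKM, and Adipoq, Plin1, Cidec and Lep were at 0 in at least 1 library. Chondrocyte markers summed to 1.53, 1.54, 1.86 and 1.74 in HFHG, against 1.05, 1.35, 1.46 and 1.17 in low glucose, with none at 0 in a library. Col10a1, the most abundant at 0.791 FPKM, was the only 1 of 4 tested and was called higher, a call lost in 8 alternatives, among them quantile normalization and the replicate block.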

How the data were processed

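Sample titles gave the groups of the 8 libraries, with HFHG medium at 25.5 mM glucose. The authors deposited FPKM for 19301 genes in 1 value column per library, of which 0 were unused. The submitters' processing notes name HISAT2 2.1.0 and mm10, and the annotation, the counting program and its strand setting are not given in the sources used here. Members are genes whose symbol matches Nduf (a, b, c, s or v), Sdh (a to d), Uqcr, Cyc1, Cycs, Cox4i, Cox5, Cox6, Cox7, Cox8 or Atp5, without Cox6a2, Cox7a1 and Cox8b. The members and lists were chosen with earlier results of these data known.

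Whole reads were recovered from the FPKM by a search for library totals and gene lengths, for 19301 of 19301 genes within 1e-06 reads. Genes with at least 0.5 FPKM in at least 4 libraries (11710) were tested with limma 3.58.1 in R 4.3.3 (lmFit, then eBayes with trend; tested on simulated data) on log2(FPKM + 0.1), HFHG minus low glucose and no covariate. Benjamini-Hochberg adjustment covered all tested genes. The pseudocount lowers the fold changes of weakly expressed genes. Genes below the filter got an exact two-sided permutation test, whose smallest p is 0.0286. Tables were made with Python 3.11.15, pandas 2.3.3 and numpy 2.4.6. Named members were, in each complex, the assembly factors and the copies, the 2 largest increases and decreases among calls, the most abundant gene, alternative isoforms and genes below the filter, of which 1 is not reported here. Each further list gave its 2 largest changes each way, and 7 regulators were added. Isoform shares, Yy1, Hif1a, Prodh, Slc25a4 and the cell markers named with values were chosen after their values were seen, and the shares were not tested. Positions come from GENCODE M21 (92 members matched by symbol) and promoters from RefSeq.

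Other settings tried were pseudocounts of 1 and 0.01, a filter at 1 FPKM or none, 3 other scalings (library sums made equal, median ratios, quantiles of the tested genes), a replicate block, robust eBayes and the omission of each library. After seeing the data, voom on the recovered reads was added.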

Additional observations from a re-analysis of the deposited data

Results flagged for a closer look

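Values of single libraries that lay far from the other 3 of their group were looked for in 184 groups of 4 libraries, and 5 were found, where chance gives about 1 in 20 groups. The only read of Cox7b2 lay in low glucose replicate 1, which put it at 0.0537 FPKM against 0 in the rest of its group. The share of Cox6b2 in the Cox6b1 and Cox6b2 pair was 2.40% in low glucose replicate 2, and 1.70% to 1.78% in the other low glucose libraries, still below the lowest HFHG share of 6.02%. Cox18 was low in low glucose replicate 3, at 12.4 FPKM against 14.28 to 14.30 FPKM. Slc25a3 was low in HFHG replicate 3, at 196 FPKM against 199.1 to 199.5 FPKM. Ppargc1a was high in low glucose replicate 1, at 0.0495 FPKM against 0.0160 to 0.0191 FPKM, and lay below the filter in every library.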

How the results depend on the processing

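Of the 34 tested members that the naming rule gives, 24 kept their direction and their side of the threshold in all 18 alternatives. The number of members higher in HFHG was 13, and 25 with the same sum, 8 with median-ratio scaling and 21 with quantile normalization. It was 10 to 19 with 1 library left out, highest without low glucose replicate 4. The number of lower members was 35, and 24 to 42 over all alternatives, 33 to 38 with 1 library left out. The median of the members, -0.053, was 0.00617 with the same sum, -0.0902 with median-ratio scaling and -0.0158 with quantile normalization. It was -0.0688 to -0.0406 with 1 library left out. Medians of single groups turned positive with the same sum (complex I accessory 0.0378, complex II 0.0525, complex III 0.0146, complex IV 0.0229), with quantile normalization (0.0180, 0.0422, 0.010 and 0.108 in that order) and, for the complex I assembly factors, with a minimum of 1 FPKM (0.00372), where fewer genes were tested. With 1 library left out, the median of the complex I accessory subunits ran from -0.0443 without HFHG replicate 3 to 0.00315 without low glucose replicate 4, and that of complex II from -0.0212 without low glucose replicate 1 to 0.0213 without HFHG replicate 4.

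Of the tested members that the naming rule gives, 5 changed sign, as follows. Members outside that rule, Atp5md and Uqcrb among them, changed sign as well. Atp5b read 0.0641 with quantile normalization. Cox6b1 read 0.0545 with the same sum and 0.19 with quantile normalization, and -0.0396 to 0.0303 with 1 library left out. Cox8a read 0.0229 with the same sum and 0.22 with quantile normalization. Ndufa4 read -0.00620 with median-ratio scaling. The log2 fold change of Sdhc was -0.0175 with median-ratio scaling and -8.03e-05 to 0.0446 with 1 library left out. The Atp5g1 share difference (HFHG minus low glucose, in percentage points) was -0.181 to 0.441 with 1 library left out. For all of these the cause was not tested.

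With the replicate number as a replicate block, 11 members were higher and 35 lower and the median was -0.053. Same-numbered libraries did not deviate together (correlations -0.074 to -0.0056), so the numbers were not taken to pair samples. How depth acts on the calls was not tested, and the members below the filter had 0 to 9 reads in a library.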

Other observations

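The members are short and abundant genes. Their lengths recovered from the FPKM had a median of 818 bases, and their mean level had a median of 68.4 FPKM, against 8.04 FPKM for all tested genes. The 644 tested genes shorter than 1000 bases had a median log2 fold change of -0.12, against 0.025 for the 11066 longer ones, and the members had -0.048 (52 shorter) and -0.062 (42 longer). The 297 tested genes with a mean over 200 FPKM had a median of -0.34, those between 20 and 200 FPKM -0.053, and those up to 20 FPKM 0.049. The 6, 75 and 13 members in these classes had medians of -0.021, -0.059 and 0.0037. The part of length and level in the member values was not tested.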
